A study of Mus musculus with 17 samples.

Results

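10 genes that mark the classical and the nonclassical monocytes of mouse blood were followed in whole blood of 17 mice: Ccr2, Cx3cr1, Csf1r, Nr4a1, Treml4, Adgre4, Adgre1, Clec4a3, Ms4a6d and Cd68. They were chosen by name, and each was read from a probe set, a group of short probes on an Affymetrix mouse array, that the platform annotation gives to 1 gene symbol only. Where a gene had several such probe sets, the brightest over the 17 arrays was used. All 10 genes were found among 18193 named genes, and all 10 passed the filter on low signal that left 12696 genes for testing.

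The mice were female C57BL/6JJcl, an inbred strain, aged 8 weeks. Of these, 5 control mice received 0 Gy, and 4 mice each received 0.5 Gy, 1.0 Gy or 3.0 Gy of X-rays to the whole body. Blood was taken 24 h later, put at once into an RNA-stabilising tube, and hybridised to 1 array per mouse, in a study of the dose response of the blood transcriptome. No cells were sorted, so in these bulk samples fewer monocytes and less RNA per monocyte cannot be told apart.

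Monocytes are made in the bone marrow from precursors that carry the growth factor receptor Csf1r, and they circulate as classical and nonclassical cells. Classical monocytes carry much Ly6C and the chemokine receptor Ccr2, live briefly in blood and enter inflamed tissue, where they can become macrophages. Nonclassical monocytes carry little Ly6C and much Cx3cr1, arise largely from classical ones under the nuclear receptor Nr4a1, stay in the vessels and survey their walls. The genes for Ly6C itself, Ly6c1 and Ly6c2, were not read here by a probe set with a single symbol.

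The arrays are described briefly first, since some of their features move with the groups. Array medians lay between 3.47 and 3.57 on the log2 scale, and no arrays held identical values. Control probe sets that read 18S ribosomal RNA averaged 10.52 ± 0.486 log2 units without irradiation (SD, n = 5), 12.69 ± 0.766 after 0.5 Gy, 13.28 ± 0.276 after 1.0 Gy and 10.68 ± 0.141 after 3.0 Gy (SD, n = 4 each). The 0.5 and 1.0 Gy arrays lay apart from the controls in this measure (both exact permutation p = 0.00794, the smallest that 4 against 5 arrays allow), and the 3.0 Gy arrays did not pass (p = 0.587). Each comparison of 0.5 or 1.0 Gy with control below therefore also compares arrays of different 18S level. Before the filter on low signal, 11 of 11 platelet markers, 9 of 10 neutrophil, 8 of 9 T cell, 7 of 8 B cell and 7 of 8 red cell markers read above the array median in all 17 arrays.

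The DNA just upstream of the transcription start is shown for the 3 genes that fell at both 0.5 and 3.0 Gy, and for Ccr2, the gene with the smallest p of the 10 at 3.0 Gy. The windows are the 250 bases before the start in the RefSeq promoter table, build GRCm38.p6, all on the + strand: chr17:48264045-48264294 for Treml4, chr17:55749734-55749983 for Adgre4, chr6:122952394-122952643 for Clec4a3 (the downstream of 2 starts) and chr9:124101933-124102182 for Ccr2. Capitals mark the core GAGGAA bound by PU.1, the product of Spi1 and a main regulator of myeloid genes, or the motif TTGCNNAA bound by C/EBP factors, each searched on both strands, so that TTCCTC is the PU.1 core on the opposite strand.
Treml4: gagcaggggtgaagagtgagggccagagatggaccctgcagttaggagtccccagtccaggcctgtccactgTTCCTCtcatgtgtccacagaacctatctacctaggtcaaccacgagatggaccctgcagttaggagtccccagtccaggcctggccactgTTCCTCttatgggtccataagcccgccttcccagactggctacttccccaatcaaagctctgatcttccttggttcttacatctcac
Adgre4: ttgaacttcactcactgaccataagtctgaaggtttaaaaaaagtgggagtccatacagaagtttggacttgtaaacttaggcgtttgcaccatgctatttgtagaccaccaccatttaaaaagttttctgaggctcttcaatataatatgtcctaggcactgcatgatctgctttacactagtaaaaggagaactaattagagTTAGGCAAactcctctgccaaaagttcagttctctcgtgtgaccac
Clec4a3: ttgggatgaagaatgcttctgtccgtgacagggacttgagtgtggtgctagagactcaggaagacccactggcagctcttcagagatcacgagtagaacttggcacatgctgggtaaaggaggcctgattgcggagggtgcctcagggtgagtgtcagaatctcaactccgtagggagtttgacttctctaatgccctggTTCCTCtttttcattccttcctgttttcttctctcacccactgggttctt
Ccr2: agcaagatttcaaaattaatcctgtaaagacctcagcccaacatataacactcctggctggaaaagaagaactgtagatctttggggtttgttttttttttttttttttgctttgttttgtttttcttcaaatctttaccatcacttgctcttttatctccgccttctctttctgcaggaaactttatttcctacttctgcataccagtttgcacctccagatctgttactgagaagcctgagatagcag

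The table held 8 windows for 7 of the 10 genes, as Clec4a3 had 2. The PU.1 core stood in 3 of these 8 windows, those of Treml4 and Cd68 and the downstream window of Clec4a3. It stood in 23.3% of all 32851 windows of the same length. The upstream window of Clec4a3, not shown, held neither motif. The Treml4 window held it in 2 places, 87 to 82 and 178 to 173 bases before the start, and the Clec4a3 window 50 to 45 bases before the start. The C/EBP motif stood in 2 of the 8 windows, those of Adgre4 and Cd68, and in 9.56% of all windows. In Adgre4 it lay 46 to 39 bases before the start, as TTAGGCAA. No match was found in the windows of Ccr2, Cx3cr1 and Nr4a1, which says only that these letters are not in these windows.

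At 3.0 Gy 6 of the 10 monocyte genes fell and none rose. Ccr2 fell most, to a level 2.88-fold lower than in the controls, and Adgre4, Clec4a3, Treml4, Nr4a1 and Cx3cr1 were 1.33-fold to 1.95-fold lower. At this dose 49.1% of all genes tested were called, 29.2% as lower and 20% as higher, so the share of the 10 that fell is to be read against a blood transcriptome in which many genes moved. Of the genes called at 3.0 Gy 40.6% were higher, and 52.6% were after the arrays were quantile-normalised again. Levels are log2 values, each change is a dose mean minus the control mean with limma's standard error, and a gene was called when its p, adjusted by the Benjamini-Hochberg method over all 12696 genes, was under 0.05. The median change of the 10 was -0.42 (all genes 0.040).

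At 0.5 Gy 3 of the 10 fell, Treml4, Adgre4 and Clec4a3, and none rose, where 5% of all genes were called lower, 5.24% higher and 10.2% in either direction. At 1.0 Gy Ms4a6d rose and Treml4 fell, against 17.3% of all genes called, 8.8% as higher and 8.49% as lower. Median changes of the 10 were -0.41 at 0.5 Gy (all genes -0.022) and -0.20 at 1.0 Gy (all genes -0.043). The 3 comparisons share the same 5 controls, so they are not independent of each other.

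**Figure D1:**
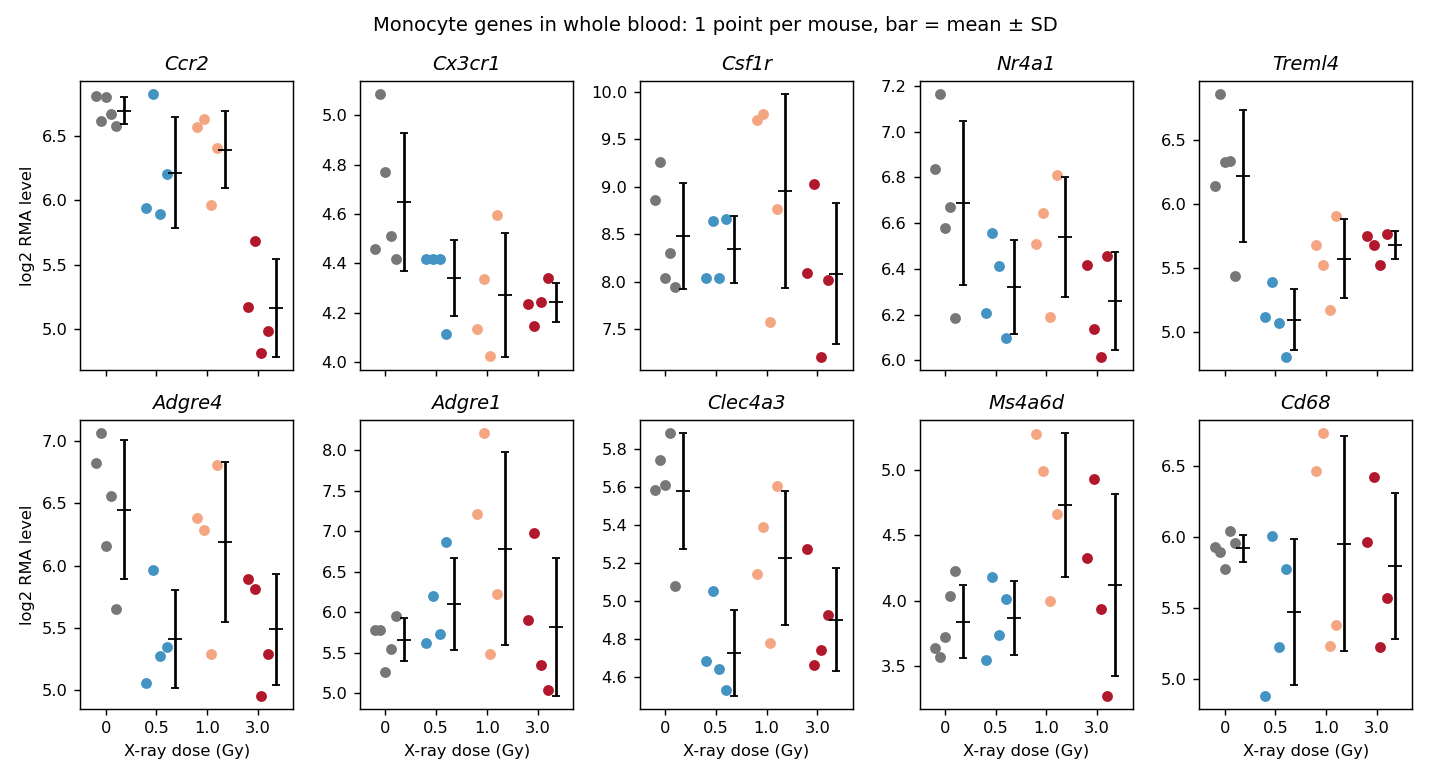
Log2 level of each of the 10 monocyte genes in each mouse, by X-ray dose in Gy, with 1 point per mouse and a bar for the mean ± SD of the group (5 controls, 4 mice at each dose). All 3.0 Gy mice lie below all controls for Ccr2 and Cx3cr1, as for 22.9% of all genes. The 1.0 Gy group is widely spread for Csf1r, Adgre1 and Cd68.

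Ccr2 (probe set 1421186_at, chromosome 9) encodes the receptor through which classical monocytes leave the bone marrow towards Ccl2 and Ccl7. Its log2 levels were 5.17, 5.69, 4.82 and 4.99 in the 3.0 Gy mice, against 6.80, 6.61, 6.80, 6.67 and 6.58 in the controls. Every 3.0 Gy mouse lay below every control, as for 22.9% of all genes, and the controls were tightly grouped. The change was -1.52 ± 0.191 (95% interval -1.92 to -1.12, adjusted p = 2.66e-06, limma). This call held in all 27 alternative settings, with a value of -0.87 when the mean of all Ccr2 probe sets was used. Its 4 probe sets changed by -1.52, -0.96, -0.77 and -0.22, and the last belongs to 1460067_at.

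At the lower doses Ccr2 was not called. Its levels were 5.94, 6.82, 5.89 and 6.21 at 0.5 Gy, where 3 of 4 mice lay below the lowest control and replicate 2 lay above the highest. The change of -0.48 ± 0.191 did not pass (adjusted p = 0.133, limma), but did without 0.5 Gy replicate 2 (-0.68, adjusted p = 0.0173). At 1.0 Gy the levels were 6.57, 6.63, 5.96 and 6.41, and the change of -0.30 had an interval from -0.70 to 0.10. Some T cells and NK cells also carry Ccr2, and 7 of 9 T cell markers fell at 3.0 Gy, against 29.2% of all genes (as given with the other cell types). Their part in the Ccr2 result was not tested.

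Cx3cr1 (1450020_at, chromosome 9) encodes the receptor for fractalkine (Cx3cl1), which supports the survival of nonclassical monocytes. Its levels were 4.24, 4.15, 4.24 and 4.34 in the 3.0 Gy mice, against 4.46, 5.09, 4.77, 4.51 and 4.42 in the controls. The groups did not overlap, as was so for 22.9% of all genes in this direction. The gap between the highest 3.0 Gy mouse and the lowest control was small. The change of -0.41 ± 0.141 passed (adjusted p = 0.0226, limma). It no longer passed without control replicate 2 (-0.30, adjusted p = 0.0625) or without 3.0 Gy replicate 2 (-0.38, adjusted p = 0.0537). The second probe set, 1450019_at, changed by -0.18.

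At 0.5 Gy and 1.0 Gy Cx3cr1 changed by -0.31 and -0.38, which did not pass (adjusted p = 0.203 and 0.0766, limma). Without 1.0 Gy replicate 4 the change at 1.0 Gy was -0.48 (adjusted p = 0.0317). The deposited values of 3 of the 0.5 Gy mice were the same to 4 decimals, 4.4177, and replicate 4 was at 4.11. NK cells also carry Cx3cr1, and of 8 NK cell markers 2 fell at 3.0 Gy (25%, against 29.2% of all genes called lower). Their part in the Cx3cr1 result was not tested.

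Nr4a1 (1416505_at, chromosome 15) encodes the nuclear receptor that nonclassical monocytes need to form, and it is also an immediate early gene of many other cells. Its levels were 6.42, 6.14, 6.02 and 6.46 in the 3.0 Gy mice, against 6.84, 7.16, 6.58, 6.67 and 6.18 in the controls. The lowest control, replicate 5, lay among the 3.0 Gy mice. The change of -0.43 ± 0.171 lay close to the threshold (adjusted p = 0.0448, limma). It ended without any 1 of control replicates 1, 2, 3 or 4, 0.5 Gy replicates 1 or 3, 1.0 Gy replicates 1 or 2, or 3.0 Gy replicates 2 or 3, at adjusted p between 0.0505 and 0.134. When the arrays were quantile-normalised again the change was -0.22 (adjusted p = 0.241). It also missed with no filter (adjusted p = 0.0501) and with only the arrays of the groups compared (adjusted p = 0.0679). At 0.5 Gy and 1.0 Gy the changes of -0.37 and -0.15 did not pass (adjusted p = 0.215 and 0.625, limma).

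Treml4 (1460014_at, chromosome 17) encodes a receptor of the Trem family that marks nonclassical monocytes and some splenic macrophages and dendritic cells of the mouse. It was the only one of the 10 called at every dose. Its levels were 5.12, 5.39, 5.07 and 4.81 in the 0.5 Gy mice, against 6.14, 6.86, 6.33, 6.33 and 5.43 in the controls. The groups did not overlap, as was so for 4.54% of all genes in this direction, and the nearest control was replicate 5. The change was -1.12 ± 0.207, or 2.18-fold (adjusted p = 0.00141, limma).

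In the 1.0 Gy mice Treml4 stood at 5.68, 5.53, 5.18 and 5.91, and in the 3.0 Gy mice at 5.75, 5.68, 5.52 and 5.77. Both groups overlapped the controls through control replicate 5 only. The changes were -0.65 ± 0.207 at 1.0 Gy (adjusted p = 0.0361) and -0.54 ± 0.207 at 3.0 Gy (adjusted p = 0.0372, limma). The 1.0 Gy call ended without any 1 of control replicates 2, 3 or 4 or 1.0 Gy replicates 1, 2 or 3 (adjusted p from 0.0586 to 0.113). The 3.0 Gy call ended without any 1 of control replicates 1, 2, 3 or 4 or any 1 of the 4 mice at 3.0 Gy (adjusted p from 0.051 to 0.102), was -0.34 after a further quantile normalisation (adjusted p = 0.152), and missed with only the arrays of the groups compared (adjusted p = 0.0609). The 1.0 Gy call missed too with only those arrays (adjusted p = 0.0856) and with median centring (adjusted p = 0.0503). The 0.5 Gy call held without each array in turn.

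Adgre4 (1451563_at, chromosome 17) encodes an adhesion G protein-coupled receptor of myeloid cells, high on nonclassical monocytes of the mouse. It fell at 0.5 and 3.0 Gy by similar amounts. Its levels were 5.06, 5.97, 5.27 and 5.34 in the 0.5 Gy mice, against 6.82, 7.06, 6.16, 6.55 and 5.65 in the controls. In the 1.0 Gy mice they were 6.38, 6.29, 5.29 and 6.81, and in the 3.0 Gy mice 5.89, 5.81, 4.96 and 5.29. Control replicate 5 lay inside the range of every dose group.

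The Adgre4 change was -1.04 ± 0.300 at 0.5 Gy (adjusted p = 0.0317) and -0.96 ± 0.300 at 3.0 Gy (adjusted p = 0.0127, limma). At 1.0 Gy the change of -0.26 had an interval from -0.89 to 0.37. The second probe set, 1424998_at, changed by -0.69 at 0.5 Gy and -0.84 at 3.0 Gy. The 0.5 Gy call ended without any 1 of control replicates 1, 2 or 4 or 0.5 Gy replicates 1, 3 or 4 (adjusted p from 0.067 to 0.118), and the 3.0 Gy call without 3.0 Gy replicate 3 (-0.78, adjusted p = 0.0538).

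Clec4a3 (1429954_at, chromosome 6) encodes a C-type lectin receptor of myeloid cells. Its levels were 4.68, 5.05, 4.64 and 4.53 in the 0.5 Gy mice, against 5.58, 5.74, 5.61, 5.88 and 5.08 in the controls. All 0.5 Gy mice lay below all controls, as for 4.54% of all genes. The change was -0.85 ± 0.180, or 1.81-fold (adjusted p = 0.0042, limma). In the 3.0 Gy mice the levels were 5.27, 4.66, 4.74 and 4.92, with 3 of 4 below the lowest control. That change, -0.68 ± 0.180 (adjusted p = 0.00429, limma), held in all 27 alternative settings. At 1.0 Gy the levels reached from 4.78 to 5.60, and the change of -0.35 did not pass (adjusted p = 0.21).

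The calls at 0.5 and 1.0 Gy rest on arrays whose 18S level differed from control. With the 18S level as a covariate, which widened the standard errors, the 0.5 Gy changes were -0.40 ± 0.405 for Treml4, -0.80 ± 0.649 for Adgre4 and -0.67 ± 0.388 for Clec4a3, and none passed (adjusted p = 0.716, 0.621 and 0.434, limma). At 1.0 Gy the same fit gave 0.28 ± 0.493 for Treml4 and -0.055 ± 0.683 for Ms4a6d, both of opposite sign to the fit without it. At 3.0 Gy, where the 18S level was near that of control, 5 of the 6 calls held in that fit, and Nr4a1 missed (-0.40 ± 0.168, adjusted p = 0.0584). What sets the 18S level was not tested.

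**Figure D2:**
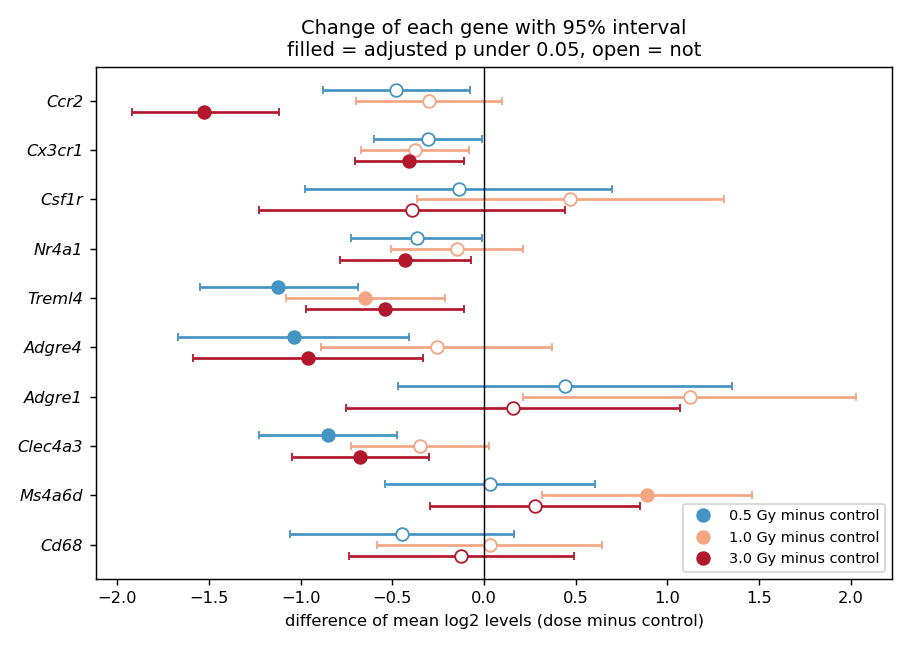
Change of each monocyte gene at each dose, as the dose mean minus the control mean in log2 units, with its 95% interval. Filled points passed at an adjusted p under 0.05: 3 genes at 0.5 Gy, 2 at 1.0 Gy and 6 at 3.0 Gy, and Ccr2 at 3.0 Gy stands farthest to the left.

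Ms4a6d (1419599_s_at, chromosome 19), of the membrane-spanning 4A family and found in monocytes and macrophages, was the only one of the 10 that rose at any dose. Its levels were 5.27, 4.99, 4.00 and 4.66 in the 1.0 Gy mice, against 3.64, 3.58, 3.73, 4.03 and 4.23 in the controls. In this group 3 of 4 mice lay above the highest control, and replicate 3 lay among the controls. The rise was 0.89 ± 0.274, or 1.85-fold (adjusted p = 0.0297, limma). It ended without any 1 of control replicates 1, 2 or 3 or 1.0 Gy replicates 1, 2 or 4 (adjusted p from 0.0583 to 0.123). The changes of 0.030 at 0.5 Gy and 0.28 at 3.0 Gy did not pass. At 1.0 Gy the probe set 1419598_at changed in the same direction (0.53 ± 0.16), and the dim 1449539_at in the other (-0.14 ± 0.103). The type of the probe set used, _s_at, can bind several related transcripts.

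Adgre1 (1451161_a_at, chromosome 17) encodes F4/80, the classic surface marker of mouse macrophages, which monocytes carry at a lower level. Its levels were 7.22, 8.21, 5.48 and 6.22 in the 1.0 Gy mice, against 5.77, 5.78, 5.26, 5.54 and 5.95 in the controls. Again 3 of 4 mice lay above all controls and replicate 3 did not. The change of 1.12 ± 0.435 did not pass (interval 0.21 to 2.03, adjusted p = 0.0877, limma), but did without 1.0 Gy replicate 3 (1.56, adjusted p = 0.0125). Changes of 0.44 at 0.5 Gy and 0.16 at 3.0 Gy had intervals that span 0, the second from -0.75 to 1.07.

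Csf1r (1419872_at, chromosome 18) encodes the receptor of monocytes and macrophages for the growth factors Csf1 and Il34. Its levels were 8.10, 9.02, 7.21 and 8.02 in the 3.0 Gy mice, against 8.86, 9.26, 8.04, 8.30 and 7.95 in the controls. In the 1.0 Gy mice they were 9.70, 9.77, 7.58 and 8.77, so that 2 mice lay above all controls and 1 below. No change of Csf1r passed: it was -0.14 at 0.5 Gy, 0.47 at 1.0 Gy and -0.39 at 3.0 Gy (interval -1.23 to 0.44). Its other probe sets, 1419873_s_at and 1423593_a_at, changed by -0.017 and 0.032 at 3.0 Gy.

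Cd68 (1449164_at, chromosome 11) encodes a lysosomal glycoprotein of monocytes and macrophages. It ranged from 5.78 to 6.05 in the controls, from 4.88 to 6.01 at 0.5 Gy, from 5.23 to 6.74 at 1.0 Gy and from 5.22 to 6.42 at 3.0 Gy. None of its changes passed, at -0.45 for 0.5 Gy (adjusted p = 0.413), 0.032 for 1.0 Gy (adjusted p = 0.958) and -0.12 for 3.0 Gy (adjusted p = 0.74, limma). The sign of those at 1.0 and 3.0 Gy turned when the arrays were quantile-normalised again, to -0.013 and 0.095.

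Whether Ccr2 and the genes of nonclassical monocytes changed by different amounts was tested on the difference itself. The change of the gene minus the change of Ccr2 at 3.0 Gy was 0.98 for Treml4, 1.12 for Cx3cr1, 1.10 for Nr4a1 and 0.56 for Adgre4. Exact permutation p was 0.0238 for each of the first 3, which became 0.0952 after adjustment over 12 comparisons, and 0.135 for Adgre4 (adjusted 0.27). At 0.5 Gy the difference was -0.64 for Treml4 (exact permutation p = 0.0714, adjusted 0.214) and -0.56 for Adgre4 (p = 0.119, adjusted 0.27). None of the 12 comparisons passed after adjustment. With the mean of all probe sets the 3.0 Gy difference of Adgre4 was -0.033. In that setting Ccr2 itself changed by -0.87, in place of -1.52, while Treml4 and Nr4a1 have only 1 probe set each. The size of the other 3.0 Gy differences therefore also depends on the Ccr2 probe set chosen. The smallest p that these permutations allow is 0.00794. A comparison that reached it alone could not pass after adjustment over 12. The lack of a pass therefore does not show that the changes were equal.

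Between doses, Ccr2 and Treml4 were called. Ccr2 was lower at 3.0 Gy than at 1.0 Gy, with a difference of -1.22 ± 0.201 (adjusted p = 0.000186, limma), where 38.6% of all genes were called, 22.7% of all as lower. It was also lower at 3.0 Gy than at 0.5 Gy (-1.05 ± 0.201, adjusted p = 0.000631), where 33.8% were called, 20.9% as lower and 12.9% as higher. A further quantile normalisation moved the share of called genes that were higher to 58.7% (41.1% without it) against 1.0 Gy and to 54.1% (38% without it) against 0.5 Gy. All 3.0 Gy mice lay below all mice of both lower doses, as for 18.3% and 20.1% of genes. Treml4 was higher at 3.0 Gy than at 0.5 Gy, with a difference of 0.58 ± 0.218 (adjusted p = 0.0461, limma) and no overlap, as for 13.1% of genes. With the 18S level as a covariate, which widened the standard errors, none of these 3 calls held. Ccr2 differed by -0.59 ± 0.457 between 3.0 and 1.0 Gy (adjusted p = 0.637) and by -0.55 ± 0.374 between 3.0 and 0.5 Gy (adjusted p = 0.493), and Treml4 by -0.091 ± 0.388 (adjusted p = 0.944, limma).

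That Treml4 call ended without any 1 of control replicates 1, 3 or 4, 0.5 Gy replicates 1, 3 or 4, 1.0 Gy replicates 1 or 2, or any 1 of the 4 mice at 3.0 Gy (adjusted p from 0.0509 to 0.131), with no filter (adjusted p = 0.0527) and with median centring (adjusted p = 0.0753). Between 1.0 Gy and 0.5 Gy none of the 10 was called, where 0.0158% of all genes were. In that comparison 9 of the 10 had a positive difference, against 49.9% of all genes, and 4 an unadjusted p under 0.05, against 5.79% of all genes, Ms4a6d the smallest (0.86 ± 0.288, adjusted p = 0.529, limma). Between 3.0 and 1.0 Gy the count of called genes was 1 but reached 6 without 1.0 Gy replicate 3 and 4 without 3.0 Gy replicate 2.

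Mice of the same dose differed much in these genes. The SD within groups was 0.768 for Adgre1, 0.703 for Csf1r, 0.52 for Adgre4, 0.508 for Cd68 and 0.472 for Ms4a6d, against a median of 0.207 over all genes. For these 5 genes it was above that of 97.9% to 99.8% of all genes tested, while Cx3cr1, at 0.213, was near the median. Replicate 3 of the 1.0 Gy group was the lowest of its group in all 10 genes, against 35.6% of all genes, and in 18 of 26 genes shared by monocytes and macrophages. The same mouse was also the lowest in 10 of 11 interferon-response genes, 7 of 9 T cell markers and 6 of 8 B cell markers, and in 0 of 8 NK cell markers.

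In the 0.5 Gy group replicate 2 was the highest in 8 of the 10 (39.1% of all genes), tied with replicates 1 and 3 for Cx3cr1. In the same mouse 8 of 10 neutrophil markers were the highest and 10 of 11 platelet markers the lowest of the group. That mouse was also the highest in 7 of 8 NK cell, 7 of 9 T cell and 6 of 8 B cell markers. It was the lowest in 6 of 8 red cell markers. Control replicate 5 was the lowest control in 7 of the 10 (23.1% of all genes), and 3.0 Gy replicate 3 the lowest of its group in 6 (30.1%). Values without such mice are given above for some genes only, mainly where a call ended or was gained. No value of the 10 genes without control replicate 5 is given above, so its part in the group changes is not shown there.

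**Figure D3:**
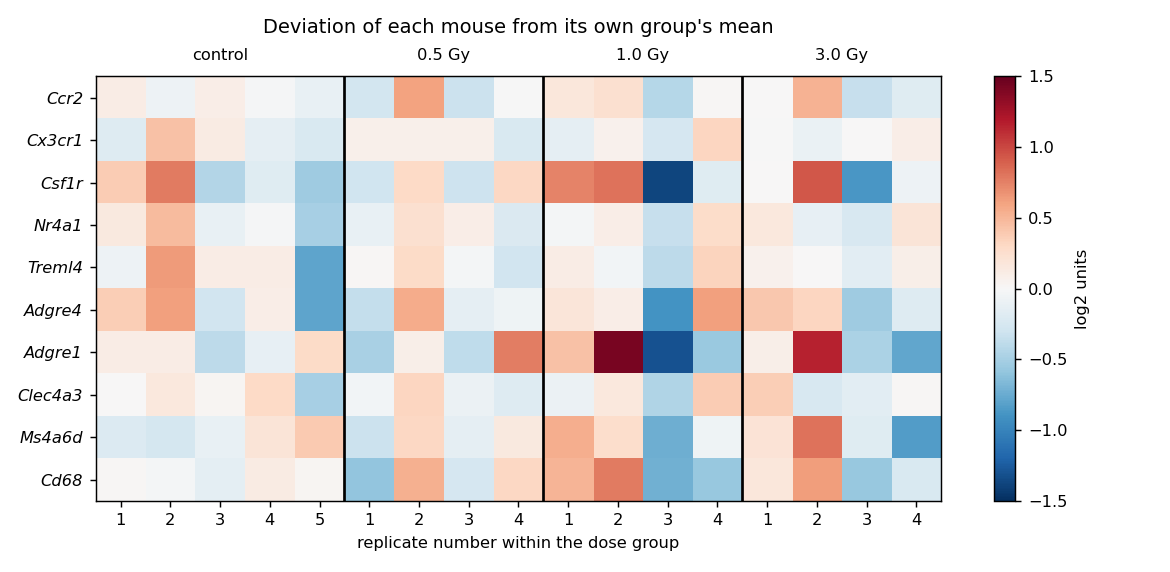
Deviation of each mouse from the mean of its own dose group, in log2 units, for the 10 monocyte genes (rows) and the 17 mice (columns, by group and replicate number), with red above and blue below the group mean. Replicate 3 of the 1.0 Gy group is blue in all 10 rows, and replicate 2 of the 0.5 Gy group is highest of its group in 8, with a tie for Cx3cr1.

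Other genes of the same monocyte kinds were counted from further lists. Of 13 other classical monocyte genes tested at 3.0 Gy, 5 rose and 4 fell, with a median of 0.38; 69.2% of the list were called, against 49.1% of all genes (median of all genes 0.040). Those that fell were Chil3, a secreted chitinase-like protein, at -1.65 ± 0.352, Ms4a4c at -1.32 ± 0.161, Plac8 at -1.18 ± 0.225 and the calcium-binding S100a4 at -1.05 ± 0.247 (adjusted p = 0.00072, 1.89e-06, 0.000255 and 0.00169, limma). Those that rose were F13a1, which encodes a subunit of factor XIII of blood clotting, by 1.69 ± 0.167, Ccr1 by 0.87, Hp by 0.79, Clec4e by 0.71 and Ifi27l2a by 0.65.

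F13a1 is also made by megakaryocytes and carried by platelets, and all 11 platelet markers rose beside it. Hp and Clec4e are also carried by neutrophils, of whose 10 markers 6 rose at 3.0 Gy, against 20% of all genes. The part of these cells was not tested. Without 3.0 Gy replicate 1 or 2 the count of classical genes that rose was 3, and Hp missed without any 1 of control replicate 5 or 3.0 Gy replicates 1, 2 or 4. At 0.5 Gy 1 rose (F13a1, 1.53) and 3 fell (Plac8 -0.99, S100a4 -1.05, Chil3 -1.16), and at 1.0 Gy F13a1 and Ifi27l2a rose (1.72 and 0.65) and S100a4 fell (-1.13). These are 30.8% of the list at 0.5 Gy and 23.1% at 1.0 Gy, against 10.2% and 17.3% of all genes. The calls of F13a1, Plac8 and S100a4 held in all 27 alternative settings at each dose at which they were called. That of Chil3 at 0.5 Gy ended in 11 of the 27, 7 of them with control replicate 1, 3 or 4, 0.5 Gy replicate 1, 3 or 4 or 1.0 Gy replicate 4 left out (adjusted p from 0.0505 to 0.243). That of Ifi27l2a at 1.0 Gy ended in 15, 10 of them with control replicate 2, 3 or 5, 0.5 Gy replicate 3 or 4, 1.0 Gy replicate 1, 2 or 4 or 3.0 Gy replicate 1 or 4 left out (adjusted p from 0.0501 to 0.895, limma).

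Of 18 other nonclassical monocyte genes tested, 4 rose and 5 fell at 3.0 Gy, with a median of -0.13. The 9 called genes are 50% of the list, near the 49.1% of all genes. Cd36, a scavenger receptor that platelets also carry, changed by -2.31 ± 0.190, Spn, a sialic acid-rich surface protein that T cells carry too, by -1.23 ± 0.227, and Slc12a2, Gngt2 and Pou2f2 by -0.92, -0.63 and -0.54. The call of Gngt2 ended without 3.0 Gy replicate 3 (adjusted p = 0.078). Dusp16 rose by 1.68 ± 0.241, Ceacam1 by 1.32 ± 0.129, Fcgr4 by 1.04 ± 0.240 and Cd300ld by 1.03 ± 0.203, and Fcgr4 is carried by neutrophils as well. At 0.5 Gy Gngt2, Eno3 and Apoc2 fell (-0.93, -0.85 and -1.03) and Ceacam1 and Itgal rose (0.67 and 0.71). At 1.0 Gy Cd36, Gngt2 and Apoc2 fell (-1.09, -0.82 and -0.77) and Ceacam1, Itgal and Dusp16 rose (0.79, 1.09 and 1.22). These are 27.8% and 33.3% of the list, against 10.2% and 17.3% of all genes. The call of Itgal at 0.5 Gy ended in 8 of the 27 settings, 6 of them with control replicate 3, 4 or 5 or 0.5 Gy replicate 1, 2 or 3 left out (adjusted p from 0.0511 to 0.102). That of Apoc2 at 1.0 Gy ended in 7, 6 of them with control replicate 3, 4 or 5 or 1.0 Gy replicate 1, 3 or 4 left out (adjusted p from 0.0621 to 0.108), and that at 0.5 Gy without 0.5 Gy replicate 3 (adjusted p = 0.0572, limma).

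Among 26 genes shared by monocytes and macrophages 3 rose and 8 fell at 3.0 Gy, with a median of 0.10. The 11 called genes are 42.3% of the list, below the 49.1% of all genes. Irf8, a transcription factor of monocyte and dendritic cell formation that B cells use too, changed by -2.40 ± 0.269, Ly86, which pairs with a Toll-like receptor homologue on B cells and myeloid cells, by -2.30 ± 0.294, and Ms4a6b by -1.75 ± 0.213. Fcer1g, the signalling chain of several Fc receptors and also of the platelet collagen receptor, rose by 1.42 ± 0.148, Lst1 by 0.83 and Cebpa by 0.45. At the lower doses 2 genes were called in each comparison: Fcer1g rose (0.48) and Cd300a fell (-0.59) at 0.5 Gy, and Fcer1g and Grn rose (0.96 and 1.11) at 1.0 Gy. The count that rose at 3.0 Gy was 5 without control replicate 5 or without 3.0 Gy replicate 3, 7 after a further quantile normalisation and 6 with the replicate number as a block. At each lower dose 7.69% of the list were called, a share below that of all genes. The rise of Fcer1g at 0.5 Gy ended in 15 of the 27 settings, among them without any 1 of control replicates 1, 2, 3 or 5, 1.0 Gy replicates 2 or 4, or any 1 of the 0.5 Gy mice (adjusted p from 0.05 to 0.534). The call of Cd300a at 0.5 Gy ended with the mean of all probe sets and with the 18S covariate, and that of Grn at 1.0 Gy with the 18S covariate and without 1.0 Gy replicate 1 or 2. Without 0.5 Gy replicate 2, 4 shared genes fell at 0.5 Gy, and without 1.0 Gy replicate 3, 4 rose at 1.0 Gy.

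Of the ligands of these receptors, 5 of 7 passed the filter on low signal, and Ccl7 and Ccl12 did not. Csf1, the main ligand of Csf1r, rose by 0.45 ± 0.142 at 1.0 Gy (adjusted p = 0.0337) and by 0.35 ± 0.142 at 3.0 Gy (adjusted p = 0.0461, limma). This 1 gene is 20% of the 5 ligands tested, against 17.3% of all genes called at 1.0 Gy and 49.1% at 3.0 Gy. The 1.0 Gy call ended without any 1 of control replicates 1, 2 or 3 or 1.0 Gy replicates 1, 2 or 4 (adjusted p from 0.0525 to 0.14). The 3.0 Gy call ended without any 1 of control replicates 1, 2 or 3, 0.5 Gy replicates 1, 3 or 4, 1.0 Gy replicates 2 or 4, or any 1 of the 4 mice at 3.0 Gy (adjusted p from 0.0509 to 0.136), with no filter, with only the arrays of the groups compared, and when arrays were centred on their medians (adjusted p = 0.0847). The 1.0 Gy call also ended with the mean of all probe sets, with only the arrays of the groups compared and with the 18S covariate, at adjusted p of up to 0.454. With the probe set of the highest variance Csf1 was not tested. No ligand was called at 0.5 Gy, although 1 was lower there and at 1.0 Gy with the probe set of the highest variance.

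Relatives of the 10 genes in their own families were also counted. Of 20 tested, 9 rose and 4 fell at 3.0 Gy, with a median of 0.27. The 13 called genes are 65% of the list, against 49.1% of all genes. Lamp2, of the lysosomal glycoprotein family of Cd68, rose by 1.99 ± 0.156, and Treml2 and Treml1, relatives of Treml4, by 1.82 ± 0.150 and 1.89 ± 0.201. Treml1 is itself a platelet marker. Those that fell were 4 members of the Ms4a family, Ms4a4b (-1.85), Ms4a6b (-1.75), Ms4a4c (-1.32) and Ms4a6c (-0.69), while the change of Ms4a6d, 0.28, did not pass. Some of these stand in other lists too: Clec4e, Ccr1 and Ms4a4c among the classical genes, and Ms4a6b and Ms4a6c among the shared ones. At both lower doses Treml2, Lamp2, Treml1 and Lamp1 rose (0.50 to 1.17 at 0.5 Gy and 0.98 to 1.66 at 1.0 Gy) and none fell. These are 20% of the list at each dose, against 10.2% and 17.3% of all genes. The call of Lamp1 at 0.5 Gy ended in 5 settings, 4 of them with control replicate 1 or 0.5 Gy replicate 1, 3 or 4 left out. With the 18S level as a covariate, 1 relative was called at 0.5 Gy and 2 at 1.0 Gy, in place of 4 each. In the same fit 3 classical genes were called at each of these doses (4 and 3 without the covariate), and Ifi27l2a turned sign at 1.0 Gy. Of the nonclassical genes 4 and 3 were called (5 and 6 without it), and of the shared genes 1 and 0 (2 and 2 without it). Some of these calls are new in that fit. At 0.5 Gy the calls of Fcer1g and Cd300a ended, so the shared gene called there is another. The calls of Eno3 and Ceacam1 ended at 0.5 Gy too, and the nonclassical count there includes a gene not called without the covariate. So does the classical count at 1.0 Gy, where the call of Ifi27l2a ended.

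**Figure D4:**
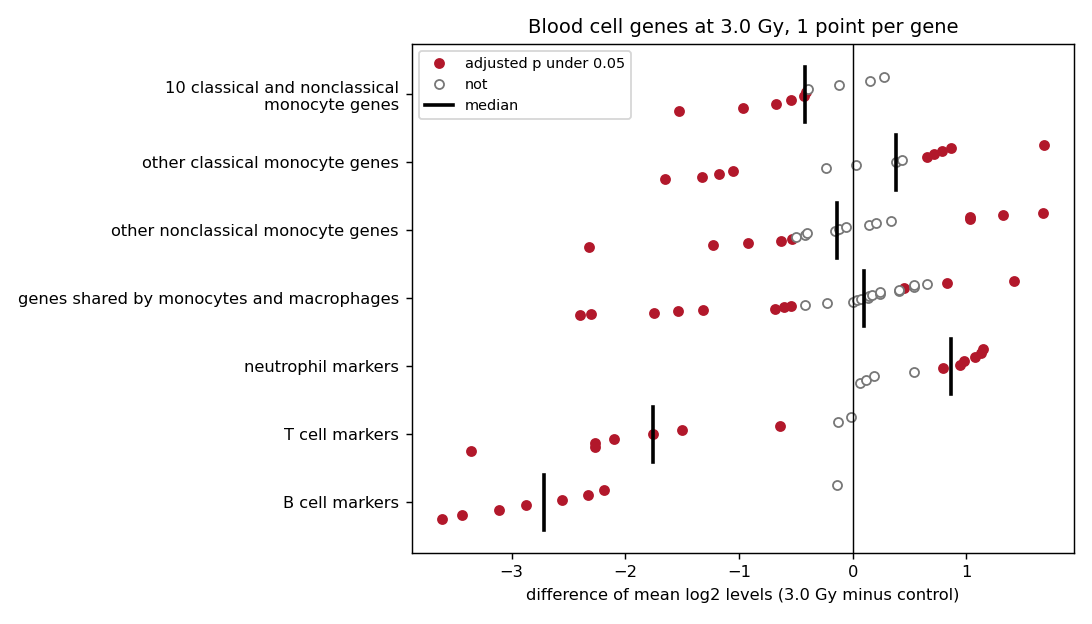
Change at 3.0 Gy against control, in log2 units, of each tested gene in the 10 monocyte genes, 3 further monocyte lists and the markers of neutrophils, T cells and B cells, with 1 point per gene, filled where the adjusted p was under 0.05, and a black line at the list's median. The further monocyte lists spread to both sides of 0, T and B cell markers lie to the left, and neutrophil markers to the right.

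Markers of the other blood cells moved as follows at 3.0 Gy. Of 9 T cell markers 7 fell, among them Cd8b1 (-3.36) and Cd3g (-2.27), and of 8 B cell markers 7 fell, among them Fcer2a (-2.87) and Cd79a (-2.56). All 11 platelet markers rose (Gp5 2.22, Gp1bb 2.11), as did 6 of 10 neutrophil markers (Cxcr2 1.13, Mmp8 1.15), a count that was 3 without control replicate 5 or without 3.0 Gy replicate 4. Klrd1 and Nkg7 fell among 8 NK cell markers, and of 6 dendritic cell markers Bst2 rose and Ccr9 fell. These are 25% and 33.3% of the 2 lists, below the 49.1% of all genes called. Of 8 red cell markers 5 fell (Car2, Trim10, Slc4a1, Epb42 and Alas2) and 2 rose (Sptb and Klf1), and of 11 interferon-response genes 8 rose (Ifit3 3.17, Ifit2 1.83) and Rsad2 fell. Called were 77.8% of the T cell, 87.5% of the B cell, 60% of the neutrophil and 100% of the platelet markers. Of the red cell and interferon-response lists 87.5% and 81.8% were called, against 49.1% of all genes. The mean level of the T cell list ranged from 5.40 to 5.82 in the 3.0 Gy mice, against 6.75 to 7.51 in the controls, and that of the platelet list from 10.50 to 11.24 in the 3.0 Gy mice, against 8.85 to 9.36 in the controls. The part of these cells in the changes of the monocyte genes was not tested.

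For each of the 6 monocyte genes called at 3.0 Gy, the 3 genes whose pattern over the 17 arrays was most like it were found, by the root mean square (RMS) difference of log2 levels after each gene's control mean was subtracted. For Ccr2 these were Klf2 (0.155), Ywhaq (0.172) and Eif4b (0.178), against a median of 0.874 over all genes, and their own 3.0 Gy changes were -1.61, -1.47 and -1.54. For Treml4 they were Eno3 (0.294), one of the other nonclassical genes, Tor1a (0.303) and Ear3 (0.311), against a median of 0.781. Ear3 was also the nearest to Clec4a3 (0.197, median 0.662), followed by Pradc1 and 4930445K14Rik, but its probe set type, _x_at, can bind several related transcripts. For Adgre4 they were Acot9, a probe set annotated to Mir1931, and Gm2a (0.346 to 0.375), for Cx3cr1 Prcc, Ciao1 and Ermard (0.175 to 0.181), and for Nr4a1 Cnppd1, Nsd3 and Ecsit (0.183 to 0.207).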

How the data were processed

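Deposited by the authors were log2 values of 45101 probe sets on 17 arrays (5 controls, 4 per dose). The submitters' processing notes name R 3.3.2 and the method RMA, robust multi-array average: it subtracts background, gives all arrays a common intensity distribution and summarises each probe set. No other setting is stated. RMA can remove part of a change shared by most genes and understates changes of dim ones. Signal over background cannot be read from these values, and the number of mice limits the precision.

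From these values, 34945 probe sets with 1 symbol were reduced to 18193 genes by the highest mean, and 12696 genes above their array's 50th percentile in at least 4 arrays were kept. Changes were tested with limma 3.58.1 in R 4.3.3 (4 group means over all arrays, two-sided, Benjamini-Hochberg adjustment over all 12696 genes, threshold 0.05); the code was tested on simulated data. Differences between changes used two-sided exact permutation tests. The 10 genes, the other lists and the alternatives (normalisation, filter, choice of probe set, moderation, samples fitted, replicate block, 18S covariate, each array left out) were chosen with earlier results of these data known. Named were all 10 genes, up to 3 called genes per list, direction and dose with the smallest p (2, at 3.0 Gy, for other cell types and interferon genes, and all where 5 or fewer were called), and the 3 genes most alike. Each array is 1 mouse, and no batch was used here.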

Additional observations from a re-analysis of the deposited data

Results flagged for a closer look

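In 1 of the 40 sets of values (10 genes in 4 groups) a mouse was flagged by Dixon's criterion, the gap to the nearest mouse over the whole range. Cx3cr1 at 0.5 Gy was at 4.112 in replicate 4, while the other 3 mice all had a deposited value of 4.418. With 3 equal values the ratio is 1 whatever the size of the gap, which was 0.306 log2 units here. For values without ties the criterion flags about 5% of sets by chance, a rate that does not cover 3 equal values. Why these 3 values are equal was not tested.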

How the results depend on the processing

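Of the calls against control, those of Ccr2 and Clec4a3 at 3.0 Gy held in all 27 alternatives, with adjusted p of at most 2.49e-05 and 0.0163 (limma). Those of Treml4 and Clec4a3 at 0.5 Gy ended only with the 18S covariate. With that covariate the number of the 10 genes called was 0 at 0.5 Gy, 0 at 1.0 Gy, 0 for 3.0 Gy against 1.0 Gy and 0 for 3.0 Gy against 0.5 Gy. The same fit turned the sign of changes at 0.5 Gy for Csf1r (0.31), Cx3cr1 (0.13), Adgre1 (-0.26), Ms4a6d (-0.71) and Nr4a1 (0.079), at 1.0 Gy for Cx3cr1 (0.18), Treml4 (0.28), Adgre4 (0.046), Ms4a6d (-0.055), Nr4a1 (0.42) and Cd68 (-0.88), and of Treml4 at 3.0 Gy against 0.5 Gy (-0.091). Standard errors of these values were wide, 0.283 to 0.926 at 0.5 Gy and 0.345 to 0.79 at 1.0 Gy. None of the turned changes passed, and most lay within 1 standard error of 0. Repeated quantile normalisation turned Cd68 to -0.013 at 1.0 Gy and 0.095 at 3.0 Gy. The count at 1.0 Gy was 1 with a filter at the 75th percentile, median centring, the mean of all probe sets or only the arrays of the groups compared, and the count for 3.0 Gy against 0.5 Gy was 1 with no filter or median centring.

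With each array left out in turn, the count was 2 to 4 at 0.5 Gy, 0 to 2 at 1.0 Gy, 3 to 6 at 3.0 Gy (3 without control replicate 2, 3.0 Gy replicate 2 or 3.0 Gy replicate 3), 0 in every case for 1.0 Gy against 0.5 Gy, 1 to 6 for 3.0 Gy against 1.0 Gy and 1 to 2 for 3.0 Gy against 0.5 Gy. Uncalled changes that turned sign ranged from -0.27 to 0.056 for Csf1r and -0.072 to 0.14 for Ms4a6d at 0.5 Gy, from -0.46 to 0.041 for Adgre4 and -0.23 to 0.27 for Cd68 at 1.0 Gy, and from -0.23 to 0.41 for Adgre1 and -0.33 to 0.067 for Cd68 at 3.0 Gy. Changes minus that of Ccr2 ranged from -0.16 to 0.21 for Adgre4 and -0.18 to 0.053 for Cx3cr1 at 1.0 Gy, and from -0.028 to 0.25 for Nr4a1 at 0.5 Gy. With the mean of all probe sets these differences were -0.047 for Nr4a1 at 0.5 Gy, 0.032 for Cx3cr1 at 1.0 Gy and -0.033 for Adgre4 at 3.0 Gy.

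Over all genes, the 18S covariate left 557 calls at 0.5 Gy (1300 without it), 606 at 1.0 Gy (2195), 0 for 3.0 Gy against 1.0 Gy (4904) and 95 for 3.0 Gy against 0.5 Gy (4292). At 0.5 Gy 810 genes were called without 0.5 Gy replicate 1 and 765 without 0.5 Gy replicate 3. For 1.0 Gy against 0.5 Gy, with 2 calls, the count was 0 to 42 with an array left out and 0 to 25 otherwise. Beyond the fewer arrays of each left-out fit, the cause was not tested.

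Whether replicate numbers pair the mice was not settled by the correlations of array deviations. Same-numbered arrays had a median correlation of 0.0666 (-0.454 to 0.495 over 24 pairs), against -0.0254 (-0.625 to 0.607) for other numbers. Best correlation with an array of their own number was found for 7 arrays, and the count that chance would give was not computed. With the replicate block the count for 3.0 Gy against 1.0 Gy was 4, and Adgre1 at 1.0 Gy passed (1.19, adjusted p = 0.0317, limma).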
